A study of Mus musculus with 6 samples.

Results

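Endothelial adhesion molecules of the immunoglobulin type, and a glycoprotein that acts beside them, hold rolling leukocytes on the vessel wall and guide them through it. Integrins on the leukocyte bind ICAM-1, ICAM-2, VCAM-1 and MAdCAM-1 during firm adhesion, and PECAM-1, CD99L2, ALCAM and MCAM sit at or near endothelial junctions, where cells cross. In the thymus, progenitors from the blood first contact P-selectin, and their integrins then bind ICAM-1 and VCAM-1 before the cells leave the vessel. Cd99l2 is described with the others although its protein has no immunoglobulin domain.

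The 8 genes Icam1, Icam2, Vcam1, Madcam1, Pecam1, Cd99l2, Alcam and Mcam were taken by name from the 24457 gene rows on chromosomes, and each name had a single row. Their RNA was compared across 3 subsets of thymic endothelial cells (ECs), with 2 libraries per subset and 6 in all. Every library came from wildtype female C57BL/6 mice aged 4 to 6 weeks, with no treatment, and from cells sorted as CD31+, CD45- and EpCAM-. Type I ECs were Ly6c+ Selp- (Ly6C+Selp- in the plots), type II ECs were Ly6c+ Selp+ and type III ECs were Ly6c- Selp+. Ly6C is a surface protein of capillary endothelium, and Selp encodes P-selectin. The labels give a sort purity of at least 90%, and neither the number of mice behind a library nor separate sorts are stated, so p-values measure only the spread between these libraries. CD31 is the product of Pecam1, so that member also belonged to the gate that all 3 subsets share.

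Values are FPKM, fragments normalised to transcript length and to the mapped fragments of the library, which allows levels to be compared between genes. The number of fragments behind a value was read back from the width of its deposited interval, and it summed to between 1452476 and 2423171 per library. Differences are given on the log2(FPKM + 1) scale with limma's standard error and p adjusted over 11717 genes, those that reached 1 FPKM in 2 or more libraries. This filter kept 7 of the 8 members and left out Madcam1. The smallest p of an exact permutation test on 2 libraries per subset is 0.33, so no such test was made for single genes. The markers that set the subsets apart followed the labels. Selp lay between 5.20 and 7.87 in type I ECs and between 313 and 657 in the other libraries. Ly6c1 lay between 59.7 and 99.6 in type III ECs and between 351 and 1010 elsewhere. RNA of the genes gated as negative was still present. Ptprc, which encodes CD45, had an FPKM of 10.6 and 2.88 in type I ECs and 6.05 and 4.47 in type II ECs. Ptprc was at 28.9 and 7.81 in type III ECs, a difference of 1.27 from type I ECs (limma adjusted p = 0.43). Epcam lay between 0.42 and 4.32 across the libraries, highest in type III replicate 1. The deposited values are not scaled between libraries. Other scalings set the upper quartiles or the sums of FPKM equal, and the latter moved the median difference of all genes by -0.19 between type III and type II ECs and by -0.12 between type III and type I ECs. The upper quartile moved it by -0.13, and quantile normalization by -0.14, between type III and type II ECs. In bulk RNA, fewer cells of a type and less RNA per cell cannot be told apart.

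Promoter sequences in the RefSeq table (build GRCm38.p6) matched 5 of the 8 members: Icam1, Madcam1, Cd99l2, Alcam and Mcam. The stretches printed here are the 250 bases before the start of Icam1 and of Madcam1, shown because both genes are textbook targets of NF-kB and because Icam1 RNA was abundant in every library whereas Madcam1 RNA was at or near 0. Capitals mark letters that match written forms of the kB element, which NF-kB binds, on either strand: GGAANTTCC, GGGNNTTCC and a longer form that has 1 more T after the NN of the latter. They are read 5′ to 3′ on the plus strand, at chr9:21015690-21015939 for Icam1 and chr10:79664309-79664558 for Madcam1.
Icam1: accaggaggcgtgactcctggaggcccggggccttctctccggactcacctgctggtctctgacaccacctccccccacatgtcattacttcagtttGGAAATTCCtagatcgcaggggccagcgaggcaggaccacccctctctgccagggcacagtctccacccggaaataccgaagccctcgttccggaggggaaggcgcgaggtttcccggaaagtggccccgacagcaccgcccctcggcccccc
Madcam1: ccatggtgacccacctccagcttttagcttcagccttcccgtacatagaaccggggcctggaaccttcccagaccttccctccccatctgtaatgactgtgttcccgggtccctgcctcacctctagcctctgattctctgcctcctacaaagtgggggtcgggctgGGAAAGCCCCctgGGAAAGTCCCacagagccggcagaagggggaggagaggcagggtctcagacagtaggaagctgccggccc

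The Icam1 stretch held GGAANTTCC at -153 to -145 from the start, and 0.813% of 32851 promoters of the same length held these letters. The Madcam1 stretch held the longer form on the opposite strand at -83 to -74 and at -70 to -61, letters found in 1.41% of promoters. The form GGGNNTTCC overlapped the first of these Madcam1 matches, at -83 to -75, and occurred in 4.98% of promoters. None of the 3 forms was in the same stretch of Cd99l2, Alcam or Mcam. The GC box GGGCGG was found in Icam1, Cd99l2, Alcam and Mcam and in 32.7% of promoters, and TATAAA in none of the 5. A match is a run of letters and does not show binding.

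Vcam1 was the member that differed between subsets past the threshold. It was 5.86-fold higher in type III than in type I ECs, a fold computed on the log2(FPKM + 1) scale, with an adjusted p under the threshold of 0.05. It was 1 of the 7 tested members, where 4.14% of all genes tested passed (2.09% higher and 2.05% lower in type III ECs). In each of the other comparisons 0 members passed in limma. At an unadjusted p under 0.05 there were 2 members between type III and type I ECs (14.1% of all genes), 1 between type II and type I ECs (7.48%) and 1 between type III and type II ECs (9.99%). Icam1, Pecam1, Icam2 and Mcam were abundant in every library and did not pass. Cd99l2 was expressed at a lower level, Alcam was near 1 FPKM, and Madcam1 was at or near 0.

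**Figure D1:**
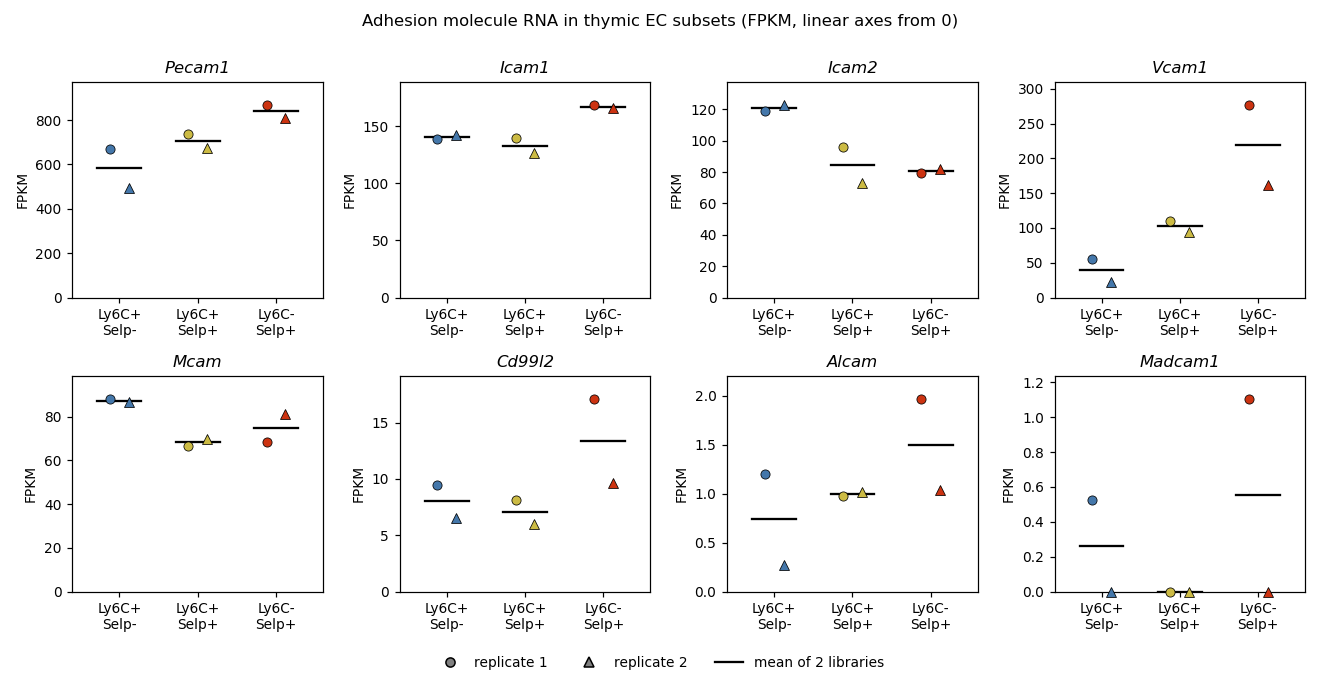
FPKM of the 8 genes in each of the 6 libraries, on linear axes from 0 that differ between panels. Circles are replicate 1, triangles replicate 2 and bars the mean of 2 libraries. Vcam1 went from a mean of 38.9 in type I ECs through 102 to 219 in type III ECs, and Madcam1 was listed at 0 in 4 libraries.

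Vcam1 (chr3:115812938-115832606 in build mm9, minus strand, with up to 9 exons in the annotation) encodes a ligand of the leukocyte integrins alpha4beta1 and alpha4beta7. Its FPKM was 55.7 and 22.2 in the type I libraries, 110 and 94.8 in the type II libraries, and 276 and 162 in the type III libraries, in order of replicate number. The libraries of the 3 subsets did not overlap, and type II ECs lay between the others. The values rested on 272 to 1997 fragments per library. The difference between type III and type I ECs was a log2 value of 2.55 with a standard error of 0.42 (adjusted p = 0.0094 in limma), which made Vcam1 number 221 of the 11717 genes when ordered by p. Between same-numbered libraries, which no label pairs, the difference was 2.29 for replicate 1 and 2.81 for replicate 2. Leaving out type III replicate 1 gave 2.16 with a limma adjusted p of 0.079, and with no filter on low values the same difference of 2.55 had an adjusted p of 0.30, so the call rested on that library and on the filter.

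Each of the steps on either side of type II ECs was in the same direction for Vcam1 and neither passed. From type I to type II ECs the difference was 1.51 (95% interval 0.56 to 2.45, limma adjusted p = 0.26), where 0.393% of all genes passed, 0.324% higher and 0.0683% lower. From type II to type III ECs it was 1.04 (95% interval 0.10 to 1.99, limma adjusted p = 0.45), where 0.222% of all genes passed, 0.0939% higher and 0.128% lower. The intervals are not adjusted for the number of genes. All comparisons share libraries, since every pair of them has a subset in common.

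Among the 8 members, Vcam1 also differed in its place in the order. It stood at place 5 by FPKM in both type I libraries, below Pecam1, Icam1, Icam2 and Mcam. It was at place 3 in both type II libraries, below Pecam1 and Icam1. In type III replicate 1 it was at place 2 with 276, above Icam1 at 168, and in type III replicate 2 it was at place 3 with 162, on an interval of 154 to 169 that overlapped the interval of 157 to 174 for Icam1. Its share of the summed FPKM of the 8 members was 3.84% ± 1.85 (SD, n = 2) in type I ECs, 9.29% ± 0.30 (SD, n = 2) in type II ECs and 15.5% ± 4.50 (SD, n = 2) in type III ECs. These shares do not depend on how libraries are scaled to each other, and those of the 3 subsets did not overlap.

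Vcam1 is also made by other cells of the thymus, including stromal cells and macrophages, and RNA of markers of such cells was present in every library. The 6 myeloid markers (among them Lyz2, Csf1r and Cd68) summed to 221 and 30.2 FPKM in the type I libraries, 79.9 and 32.5 in the type II libraries, and 372 and 66.4 in the type III libraries. Within each subset replicate 1 had the higher sum, and replicate 1 also had the higher Vcam1, by 2.51-fold in type I ECs, 1.16-fold in type II ECs and 1.71-fold in type III ECs. Across subsets, the myeloid sum and Vcam1 were both highest in type III ECs for each replicate number. In replicate 2 both rose from type I through type II to type III ECs. In replicate 1 the myeloid sum was lower in type II than in type I ECs, and Vcam1 was higher. Type III replicate 2 had less myeloid RNA than type I replicate 1 (66.4 against 221) and more Vcam1 (162 against 55.7). The 5 myeloid markers tested were all higher in type III than in type I ECs by their estimates, with a median of 0.83, and 0 passed limma's threshold (0 at an unadjusted p under 0.05).

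The 8 T cell markers, Ptprc among them, summed to between 23.9 and 92.1 in type I ECs, 41.0 and 65.8 in type II ECs, and 75.4 and 174 in type III ECs, with a median difference of 1.12 between the outer subsets and 0 of 8 past the threshold in limma (1 at an unadjusted p under 0.05). The 7 pericyte and fibroblast markers had lower sums in type III ECs, with 207 to 504 in type I ECs, 310 to 559 in type II ECs and 150 to 163 in type III ECs. Rgs5, a pericyte gene, made up most of the sum in type I replicate 1 (346 of 504). Of the 7, 5 had negative and 2 had positive differences between type III and type I ECs, the latter being Dcn (0.23) and the smooth muscle actin gene Acta2 (1.16, limma adjusted p = 0.18). The pericyte receptor Pdgfrb was the marker among them that passed, lower by a log2 difference of -1.85 in type III than in type I ECs (limma adjusted p = 0.013). The 6 thymic epithelial markers summed to between 22.6 and 86.8 in type I ECs and to between 16.1 and 78.0 in type III ECs. The 6 platelet and erythroid markers summed to 83.2 and 139.9 in type I ECs and to 1.38 and 14.1 in type III ECs. Both rows of the haemoglobin gene Hba-a1, near-identical copies that can share reads, passed as lower in type III than in type I ECs (limma adjusted p = 0.0017 and 8.8e-05). The first had an FPKM of 55.6 and 43.8 in type I ECs and 0 and 2.84 in type III ECs, the latter on 3 fragments, and the second 26.0 and 24.4 in type I ECs and 0 in both type III libraries, so no fold is given. The 4 lymphatic markers summed to 1.92 and 3.83 in type I ECs, 2.85 and 5.17 in type II ECs, and 6.19 and 20.6 in type III ECs, so that their sum, like Vcam1, was highest in type III ECs. Prox1, the defining transcription factor of lymphatic endothelium, had an FPKM of 0.32 and 0.52 in type I ECs, 0.53 and 1.09 in type II ECs, and 3.05 and 3.22 in type III ECs (1.54 between the outer subsets, limma adjusted p = 0.058). Lyve1 was at 0 in both type I libraries and at 12.4 and 1.07 in the type III libraries, and Ccl21a was listed at 0 in all 6. All 3 lymphatic markers tested had positive differences between the outer subsets, with a median of 1.54, and 0 passed in limma (2 at an unadjusted p under 0.05). None of the myeloid, T cell, epithelial or stromal lists had a marker at 0 in any library. The part of other cells in the Vcam1 difference was not tested.

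Of the 8 endothelial markers, all tested, 0 rose and 2 fell between type I and type III ECs, and the list summed to 1815 to 2078 FPKM in type I ECs, 1255 to 1313 in type II ECs and 1246 to 1370 in type III ECs. Cldn5, which encodes a tight junction protein, had an FPKM of 410 and 364 in type I ECs, 154 and 100.5 in type II ECs, and 35.4 and 23.4 in type III ECs (log2 difference between the outer subsets -3.70, limma adjusted p = 0.00025), and it was also lower in type III than in type II ECs (-2.07, limma adjusted p = 0.041). Kdr, which encodes a VEGF receptor, had 206 and 173 in type I ECs and 63.4 and 70.2 in type III ECs (-1.49, limma adjusted p = 0.0079). Cdh5, Tek, Tie1, Egfl7, Erg and Emcn, between 46.3 and 632 in every library, did not pass.

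**Figure D2:**
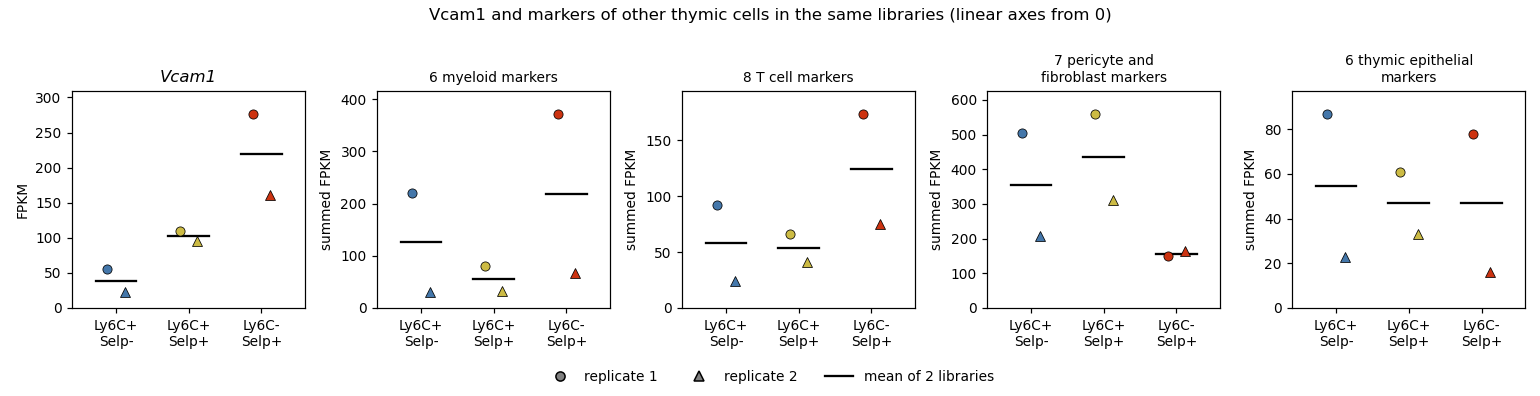
Vcam1 in FPKM and the summed FPKM of 4 marker lists of other thymic cells in the same 6 libraries, on linear axes from 0. Circles are replicate 1, triangles replicate 2 and bars the mean of 2 libraries. Myeloid markers were higher in replicate 1 of every subset, at 221, 79.9 and 372, than in replicate 2, at 30.2, 32.5 and 66.4. Vcam1 was higher in type II than in type I ECs and highest in type III ECs in both replicates. The myeloid sum was also highest in type III ECs in both replicates.

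The genes with a pattern closest to that of Vcam1 were found by the distance between centred log2(FPKM + 1) values over the 6 libraries, among 4200 other genes with a mean FPKM of at least 10. The closest was Sirpa, which encodes a receptor of CD47 found on myeloid cells and on some endothelium, at a distance of 0.47 on the log2 scale. Sirpa had an FPKM of 17.7 and 4.01 in type I ECs, 28.7 and 25.7 in type II ECs, and 68.4 and 47.6 in type III ECs. Csrp2, which encodes a LIM domain protein, followed at 0.56, and Gpr1, which encodes a G protein-coupled receptor, at 0.62. With 6 libraries and 3 subset levels, such likeness is a description of these values alone.

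Icam1 (chr9:20820404-20833240 on mm9, plus strand, with up to 7 exons) encodes a ligand of the integrins LFA-1 and Mac-1. Its FPKM was 138 and 142 in type I ECs, 139 and 126 in type II ECs, and 168 and 166 in type III ECs. Both type III libraries were above the other 4, whose values overlapped. The difference between type III and type I ECs was 0.25 (95% interval -0.24 to 0.73, limma adjusted p = 0.72), and from type II to type III ECs it was 0.33 (95% interval -0.16 to 0.82, adjusted p = 0.68). Under both other scalings, the libraries of type III and type I ECs overlapped for Icam1. The values rested on 767 to 1491 fragments per library.

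Icam2 (chr11:106238970-106243955, minus strand) encodes a ligand of LFA-1 that endothelium makes constitutively. Its FPKM was 119 and 123 in type I ECs, 95.8 and 72.9 in type II ECs, and 79.3 and 82.0 in type III ECs. Both type I libraries were above the other 4, and the Selp+ subsets overlapped. The difference between type III and type I ECs was -0.58 (95% interval -1.11 to -0.05, limma adjusted p = 0.30). Between same-numbered libraries, which no label pairs, it was -0.58 for replicate 1 and -0.58 for replicate 2. From type I to type II ECs it was -0.53 (adjusted p = 0.67). The type I libraries stayed above the other 4 for Icam2 under both other scalings.

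The 2 ligands of LFA-1 stood in a different ratio in each subset. Icam1 over Icam2 was 1.16 in both type I libraries, 1.45 and 1.73 in the type II libraries, and 2.12 and 2.02 in the type III libraries. The 3 subsets did not overlap, and a ratio within a library is free of the scaling between libraries. Vcam1 over Icam1 was 0.40 and 0.16 in type I ECs, 0.79 and 0.75 in type II ECs, and 1.64 and 0.97 in type III ECs. No test was made on these ratios.

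**Figure D3:**
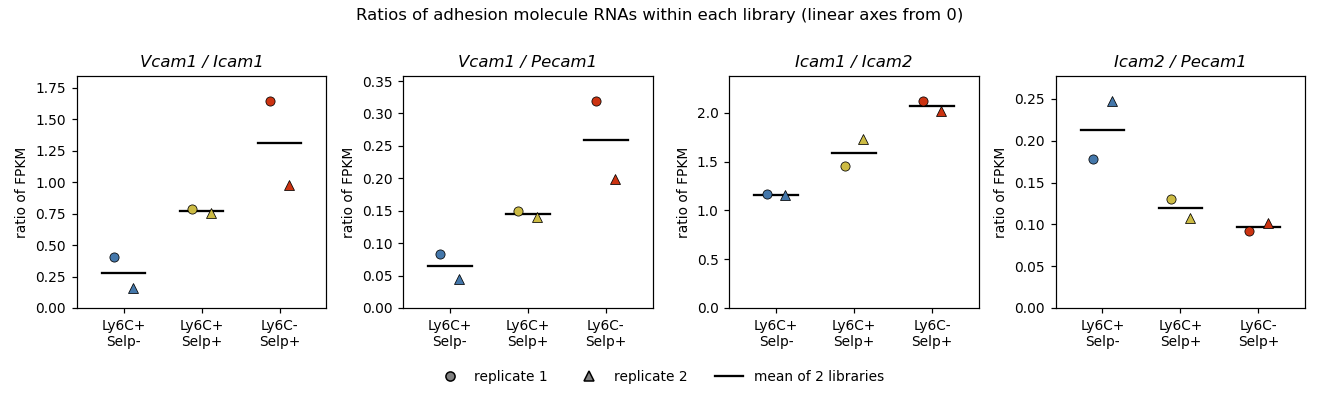
Ratios of FPKM between pairs of adhesion molecule genes within each library, on linear axes from 0. Circles are replicate 1, triangles replicate 2 and bars the mean of 2 libraries. Icam1 over Icam2 was 1.16 in both type I libraries and 2.12 and 2.02 in the type III libraries, while Icam2 over Pecam1 had means of 0.21, 0.12 and 0.096.

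Pecam1 (chr11:106515532-106576595, minus strand, with up to 16 exons) encodes CD31, which binds itself across endothelial junctions, and its protein was used in the gate. It had the highest FPKM of the 8 members in every library. The values were 669 and 496 in type I ECs, 735 and 674 in type II ECs, and 867 and 811 in type III ECs. The libraries of the 3 subsets did not overlap, in the order type I, type II and type III. The difference between type III and type I ECs was 0.54 (95% interval -0.01 to 1.09, limma adjusted p = 0.36). Under both other scalings, the libraries of type III and type II ECs overlapped, while those of each remained above those of type I ECs. Pecam1 made up 59.2% ± 3.76 (SD, n = 2) of the summed FPKM of the 8 members in type I ECs and 60.2% ± 2.26 (SD, n = 2) in type III ECs.

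Mcam (chr9:43942741-43950809, plus strand) encodes CD146, an adhesion molecule of endothelial junctions and of pericytes. Its FPKM was 87.9 and 86.6 in type I ECs, 66.6 and 69.8 in type II ECs, and 68.2 and 81.2 in type III ECs. The type I libraries were above the other 4 on the deposited values, and they overlapped with them under both other scalings. The difference between type III and type I ECs was -0.23 (95% interval -0.74 to 0.28, limma adjusted p = 0.77), and between type II and type I ECs it was -0.35 (adjusted p = 0.85). The summed pericyte and fibroblast markers were lowest in type III ECs, as given above, and their part in the Mcam values was not tested.

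Cd99l2 (chrX:68673235-68746024, minus strand) encodes a relative of CD99 that takes part in transmigration. Its FPKM was 9.46 and 6.54 in type I ECs, 8.16 and 6.01 in type II ECs, and 17.1 and 9.66 in type III ECs, on 61 to 122 fragments per library. Both type III libraries were above the other 4, by a narrow margin for replicate 2. The difference was 0.64 from type I ECs (95% interval -0.15 to 1.44, limma adjusted p = 0.50) and 0.79 from type II ECs (95% interval -0.00 to 1.59, adjusted p = 0.50). Without type III replicate 1, the difference between type III and type I ECs was 0.26. That library had the highest myeloid, T cell and lymphatic marker sums, and the part of other cells in the Cd99l2 values was not tested.

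Alcam (chr16:52249109-52453110, minus strand) encodes CD166, the ligand of CD6 on T cells. Its FPKM was 1.20 and 0.27 in type I ECs, 0.97 and 1.02 in type II ECs, and 1.96 and 1.03 in type III ECs, on 5 to 21 fragments. Replicate 1 of type I ECs was above 3 of the 4 libraries of the Selp+ subsets, so type I overlapped with both other subsets. Its difference between type III and type I ECs was 0.55 with a 95% interval from -0.42 to 1.52, which leaves room for either direction at this depth (limma adjusted p = 0.68).

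Madcam1 (chr10:79127319-79131281, plus strand) encodes the addressin of mucosal venules, which binds alpha4beta7. It was listed at 0 in 4 libraries. Replicate 1 of type I ECs had an FPKM of 0.52 on 2 fragments, and type III replicate 1 had 1.10 on 3 fragments. The deposited intervals of both values reached down to 0. Madcam1 was thus at or near 0 in every library at this depth, and no fold was computed.

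**Figure D4:**
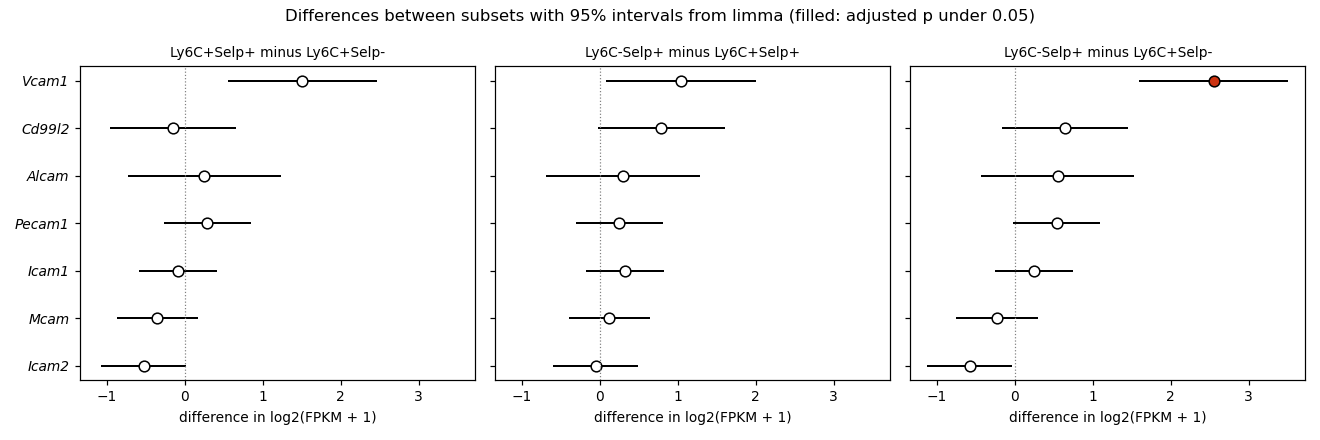
Differences in log2(FPKM + 1) between subsets for the 7 members tested, with 95% intervals from limma that are not adjusted for the number of genes. The filled point is the only difference with an adjusted p under 0.05, Vcam1 at 2.55 between type III and type I ECs, and open points did not pass.

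Counted together, 6 of the 7 tested members had libraries that did not overlap between type III and type I ECs, 4 higher and 2 lower, where 37.9% of all genes tested did so (20.7% higher and 17.1% lower). Between type III and type II ECs the count was 5 of 7, all higher, against 41.0% of all genes (27.7% higher and 13.3% lower), and between type II and type I ECs it was 4 of 7, 2 higher and 2 lower, against 33.6% (13.0% higher and 20.6% lower). With the sums of FPKM set equal, these counts were 4, 4 and 3 of 7, against 45.5%, 40.4% and 40.7% of all genes. Icam2 was then lower in type III than in type II ECs. With the upper quartiles set equal, the counts were 5, 3 and 3 of 7, against 45.4%, 39.8% and 40.5% of all genes. Vcam1 and Cd99l2 remained higher in type III than in both other subsets under both other scalings. The median difference of the 7 members between type III and type I ECs was 0.54, beside 0.08 for all genes tested.

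Other adhesion molecules of the same type, from a list of 18 of which 15 were tested, had 0 higher and 1 lower in type III than in type I ECs, with a median difference of -0.27. The gene that passed was Ceacam1, which encodes a homophilic receptor of endothelium and leukocytes. Ceacam1 had an FPKM of 25.5 and 18.9 in type I ECs, 14.9 and 11.05 in type II ECs, and 7.26 and 9.23 in type III ECs, a difference of -1.32 between the outer subsets (standard error 0.30, limma adjusted p = 0.041). At an unadjusted p under 0.05 there were 2 of the 15 in this comparison. Between type II and type I ECs and between type III and type II ECs 0 passed in limma (1 and 2 at an unadjusted p under 0.05). Of the junctional relatives, Jam3 had an FPKM of 68.8 and 36.1 in type I ECs, 42.2 and 24.7 in type II ECs, and 27.0 and 23.8 in type III ECs (-0.95 between the outer subsets, 95% interval -1.77 to -0.13, limma adjusted p = 0.26). F11r, Jam2 and Esam lay between 45.4 and 297 in every library, and none of these 4 passed.

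From a list of docking, signalling and tetraspanin proteins that act with ICAM-1 and VCAM-1, the RNA of all 15 genes was tested. Actn1, which encodes an alpha-actinin that crosslinks actin, passed. It rose from 50.6 and 41.9 in type I ECs through 58.9 and 71.5 in type II ECs to 89.6 and 109 in type III ECs, a difference of 1.08 between the outer subsets (standard error 0.24, limma adjusted p = 0.043). The tetraspanin Cd9 had a difference of 1.06 (adjusted p = 0.092) and the tetraspanin Cd81 one of -1.02 (adjusted p = 0.059), and neither passed. At an unadjusted p under 0.05 in limma there were 5 of the 15 between type III and type I ECs, against 14.1% of all genes. Besides Actn1, Cd9 and Cd81 these were Rhog (-0.58) and Arhgef26 (-1.04, at 0.21 to 1.78 FPKM). Of the list, 6 differences were positive and 9 negative, with a median of -0.01.

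The 4 sheddases that can cleave adhesion molecules, Adam8, Adam10, Adam15 and Adam17, had 0 genes past the threshold in limma in any comparison (0 at an unadjusted p under 0.05). Of 14 genes of the NF-kB pathway, through which LTβR and TNF receptors raise adhesion molecule genes, 0 passed between type III and type I ECs in limma (1 at an unadjusted p under 0.05, Il1r1), with a median difference of 0.30. Ltbr itself lay between 32.6 and 43.9 in every library. Of 9 counter-receptor genes of the members, 8 were tested and 0 passed between the outer subsets in limma (2 at an unadjusted p under 0.05). All 8 differences were positive between type III and type I ECs (median 0.76) and between type III and type II ECs (median 0.997). Not all of these genes are limited to leukocytes. Itgb1, at 89.7 to 186 FPKM, made up most of the summed FPKM of the list in every library. The part of leukocyte RNA in these differences was not tested.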

How the data were processed

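RNA of the 3 sorted subsets was sequenced by the authors as paired-end libraries made with a kit that does not mark strand. Reads were trimmed and mapped to mm9 with TopHat, and the authors deposited FPKM values computed per gene and library with Cufflinks, with the bounds of an interval (TopHat2 2.0.10 and Cufflinks 2.1.1 in the submitters' processing notes). The gene annotation is not given in the sources used here. Spike-in and reporter rows were left out. Values of log2(FPKM + 1) for genes that reached 1 FPKM in 2 or more libraries were fitted with limma 3.58.1 in R 4.3.3, with a mean per subset, a trend on mean expression and Benjamini-Hochberg adjustment at 0.05. The authors' Cuffdiff test needs reads. Their list of genes that differ between type III and type I ECs by that test holds Vcam1, Ceacam1 and Actn1. It also holds Cd9, Cd81, Jam3 and Il1r1, which did not pass in limma here. Fragments behind a value were estimated as the square of 2 FPKM divided by the half-width of its interval, which takes that interval to reflect counting only. Each deposited interval comes from a single library and does not cover the spread between libraries. The code was tested on simulated data. The members and gene lists were chosen with earlier results of these data known. Named genes are all members, the sort genes, list genes past the threshold (up to 5 per list) and the 3 nearest patterns to a member that passed, and other list genes were named after their values were seen. Exon counts and strands came from the GENCODE mouse annotation on the same assembly. Alternatives were another pseudocount, other filters and scalings, a replicate block, no trend, only the compared libraries, and each library left out. The separation of libraries under other scalings was added after seeing the data.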

Additional observations from a re-analysis of the deposited data

How the results depend on the processing

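Vcam1 kept its direction in all 15 alternatives of every comparison. Between type III and type I ECs it passed in 13 of 15, so the count of members called was 1 there, with 0 under no filter on low values and a range of 0 to 1 over the fits that each left out 1 library. Its difference ranged from 1.91 to 3.19 over those fits, and its adjusted p from 0.00074 to 0.30 over all alternatives. The replicate numbers were shared between subsets without any label that pairs them, and the deviations of same-numbered libraries had correlations of 0.18 to 0.31 across genes. With the replicate number as a block, Vcam1 also passed between type II and type I ECs (1.51, limma adjusted p = 0.031), which made 1 member called there in place of 0, and no other member changed its call.

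The counts over all genes moved more. Between type III and type I ECs, 485 genes passed, 102 with no filter, 971 with the replicate block and 209 to 404 with 1 library left out. Between type II and type I ECs, 46 passed, 10 with no filter, 103 with quantile normalization, 98 with the same upper quartile, 102 with the same sum, 183 with the replicate block, 15 without a trend, 29 with only the 4 libraries compared and 12 to 33 with 1 library left out. Between type III and type II ECs, 26 passed, 2 with no filter, 90 with quantile normalization (22 higher and 68 lower), 100 with the same upper quartile (25 and 75), 126 with the same sum (28 and 98), 229 with the replicate block, 10 without a trend, 7 with only the 4 libraries compared and 2 to 14 with 1 library left out. The cause of these shifts was not tested.

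Of the other members, none passed in any alternative. The difference of Mcam between type III and type II ECs turned from 0.12 to -0.059 with quantile normalization, -0.034 with the same upper quartile and -0.10 with the same sum, and ranged from -0.00031 to 0.25 with 1 library left out. That of Icam2 in the same comparison, -0.05, ranged from -0.25 to 0.14 with 1 library left out and was -0.27 with the same sum. Between type II and type I ECs, with 1 library left out, Cd99l2 ranged from -0.38 to 0.087 (0.044 without type II replicate 2) and Alcam from -0.15 to 0.65. The share of Vcam1 among the members ranged with 1 library left out from 2.53% to 5.15% in type I ECs, from 9.08% to 9.50% in type II ECs and from 12.3% to 18.7% in type III ECs. Depth limited Madcam1 and Alcam, which rested on at most 21 fragments per library.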
